A study of Homo sapiens with 23 samples.

Results

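Thalamus organoids (ThOs) labelled as c-JUN knockout with c-JUN expressed again were compared between day 30 (D30) and day 25 (D25) of culture. The 4 RNA-seq libraries were those titled H1cJunKO+cJun at D25 (replicates 1 and 2) and at D30 (replicates 1 and 2), called OE here, and they are 4 of the 12 RNA-seq libraries and of the 23 samples in the series. All 9497 genes with a value in the tables were compared. H1 is an established human embryonic stem cell line, and a ThO is a sphere of neural tissue grown from such cells and patterned towards the thalamus, the relay center of the diencephalon. The OE cells carried the CRISPR-Cas9 knockout of c-JUN and, per the methods of the study, a tet-on plasmid from which doxycycline in the medium switches c-JUN on. Which of the study's knockout clones carried the plasmid is not given in the sources used here, nor whether the other groups received doxycycline. The libraries set beside them were from unedited H1 ThOs (WT) and from knockout ThOs without the plasmid (KO), again 2 at each day. All groups passed through the same patterning with dual SMAD inhibition, BMP7 and a MEK inhibitor, followed by BDNF and ascorbic acid. Each library came from 3 pooled organoids, so organoids within a library cannot be told apart.

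c-JUN is a leucine zipper protein that pairs with FOS, ATF and JUN relatives to form AP-1, a transcription factor that binds short palindromic DNA sites. In the embryo the thalamus forms next to the roof plate, a dorsal strip of cells that secretes Wnt and BMP proteins, and roof plate cells also give rise to the choroid plexus, an epithelium with motile cilia that makes cerebrospinal fluid. In patterned organoids these dorsal derivatives can arise beside thalamic progenitors and neurons, so their markers were followed together with those of the thalamus.

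The values are expression scores that the authors had already scaled, with the same minimum (11), median (106) and maximum (9910) in all 12 libraries. The depth of the libraries is unknown, no counting interval could be given, and a gene that was low in any library was not in the tables. The level of JUN (chr1:58776845-58784048, GRCh38) went against the knockout label. JUN scored 139, 153, 128 and 162 in the 4 WT libraries, 353, 196, 222 and 248 in the 4 libraries labelled KO, and 224, 212, 362 and 202 in the 4 OE libraries. The libraries labelled KO thus lay above all WT libraries, and where the edit lies in the gene is not given in the sources used here. The OE libraries also lay above all WT libraries, and they overlapped those labelled KO. These scores thus do not show JUN expressed in OE above its level in the libraries labelled KO. The study reported no c-JUN mRNA in the knockout by RT-qPCR, during neural progenitor induction and in cerebral organoids. By western blot it reported no c-JUN protein in the knockout cell lines, and overexpressed c-JUN protein in them after doxycycline. Those measures were not analysed here. The replicates of OE ranked genes alike (Spearman rho 0.958 at D25 and 0.947 at D30), whereas those labelled KO did so less closely (0.821 and 0.769), and 1 of them (D30, replicate 2) lay apart on the first principal component. Every comparison with the libraries labelled KO below rests on these noisier values. The fit takes 1 spread per gene over all 12 libraries, so the same values also enter the SE and p of every OE difference.

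Sequences are shown for the start regions of the motile cilia genes TEKT1, SPAG6 and DRC1 (higher at D30), of the Wnt ligand genes WNT8B and WNT5A (lower at D30), and of TPBG, the gene with the lowest p. They were picked with the values in view, to show members of a group on each side. They are the 250 bases before the RefSeq start in GRCh38.p14, printed 5′ to 3′ on the strand of the gene, and capitals mark matches to 5 motifs that were searched on both strands. The regions are chr17:6831730-6831979 (minus strand) for TEKT1, chr10:22345246-22345495 (plus strand) for SPAG6, chr2:26401670-26401919 (plus strand) for DRC1, chr10:100462759-100463008 (plus strand) for WNT8B, chr3:55487307-55487556 (minus strand) for WNT5A and chr6:82362733-82362982 (plus strand) for TPBG.
TEKT1: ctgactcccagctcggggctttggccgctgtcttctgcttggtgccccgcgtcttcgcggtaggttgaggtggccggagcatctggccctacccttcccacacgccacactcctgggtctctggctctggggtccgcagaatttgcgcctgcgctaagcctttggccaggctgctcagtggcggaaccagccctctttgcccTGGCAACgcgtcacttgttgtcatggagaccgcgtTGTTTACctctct
SPAG6: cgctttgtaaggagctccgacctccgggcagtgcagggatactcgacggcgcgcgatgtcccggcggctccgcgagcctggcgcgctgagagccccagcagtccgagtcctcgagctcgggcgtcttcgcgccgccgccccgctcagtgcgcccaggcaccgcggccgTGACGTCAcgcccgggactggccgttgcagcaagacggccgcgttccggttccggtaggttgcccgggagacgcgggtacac
DRC1: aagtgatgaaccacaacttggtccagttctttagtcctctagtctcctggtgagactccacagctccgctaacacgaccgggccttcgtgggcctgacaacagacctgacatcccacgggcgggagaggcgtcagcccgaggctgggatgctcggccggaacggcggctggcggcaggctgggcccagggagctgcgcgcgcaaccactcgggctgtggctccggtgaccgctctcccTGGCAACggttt
WNT8B: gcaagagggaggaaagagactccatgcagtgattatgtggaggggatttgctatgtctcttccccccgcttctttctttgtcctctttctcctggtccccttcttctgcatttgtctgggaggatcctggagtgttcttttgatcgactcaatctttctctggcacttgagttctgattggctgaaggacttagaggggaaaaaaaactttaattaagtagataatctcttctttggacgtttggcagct
WNT5A: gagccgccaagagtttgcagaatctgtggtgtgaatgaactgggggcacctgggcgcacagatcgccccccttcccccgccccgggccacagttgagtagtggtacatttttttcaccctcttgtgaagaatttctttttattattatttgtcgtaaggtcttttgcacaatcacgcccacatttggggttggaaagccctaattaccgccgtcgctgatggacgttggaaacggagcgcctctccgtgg
TPBG: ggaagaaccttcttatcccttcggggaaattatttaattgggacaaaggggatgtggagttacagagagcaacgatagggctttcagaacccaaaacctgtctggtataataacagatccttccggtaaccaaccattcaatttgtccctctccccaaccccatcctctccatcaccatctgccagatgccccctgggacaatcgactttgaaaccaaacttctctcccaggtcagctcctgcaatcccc

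The motifs were the AP-1 site TGANTCA, the cAMP response element TGACGTCA to which JUN and ATF pairs bind, the TCF/LEF site ATCAAAG, the X-box half-site GTTGCCA bound by RFX factors, and the forkhead site TGTTTAC. The TEKT1 region held an X-box half-site 48 bases before the start and a forkhead site 13 bases before it. In the SPAG6 region a cAMP response element began 82 bases before the start, and in the DRC1 region an X-box half-site began 12 bases before it. None of the 5 motifs was in these windows of WNT8B, WNT5A and TPBG. Over all 35116 RefSeq start regions of the same length, 6.57% held the AP-1 site, 1.65% the cAMP response element, 2.26% the TCF/LEF site, 3.49% the X-box half-site and 2.98% the forkhead site. Of the 66 genes that differed most between the days (defined in the following paragraph), 45 had a start region matched by symbol. The AP-1 site was in 4 of the 20 regions of genes higher at D30 and in 2 of the 25 of genes lower at D30. The X-box half-site was in 3 and 1 of them, the cAMP response element in 2 and 0, the TCF/LEF site in 2 and 1, and the forkhead site in 2 and 0. A match is only a run of letters, and no binding was measured here.

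No gene differed between D30 and D25 at an adjusted p under 0.05 and 2-fold (0 of 9497, 0%, limma on log2(score + 1) with Benjamini-Hochberg adjustment). The lowest adjusted p was 0.97, for TPBG, and 180 genes (1.9%) had an unadjusted p under 0.05 at any fold. That share is below the 0.05 that the threshold alone would let through if no gene differed. As no gene was called, a looser tier was described: genes with an unadjusted p under 0.05, a difference of at least 2-fold, and D25 and D30 libraries that did not overlap. It held 66 genes (0.695% of all genes), 31 higher at D30 (0.326%) and 35 lower (0.369%). Each gene below is therefore a description of 4 libraries and no call. For each list below, the shares above and the 50.1% of all genes with a difference above 0 are the background. With 2 libraries against 2 an exact two-sided permutation test of a single gene cannot go below p = 0.333.

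The single libraries weighed heavily on this tier. Among the 31 higher genes, D30 replicate 1 exceeded D30 replicate 2 in 25, compared with 47.7% of all genes, and without that library 16 genes were in the higher tier, against 88 without D30 replicate 2. Among the 35 lower genes, D25 replicate 1 exceeded D25 replicate 2 in 30, compared with 47.5% of all genes. Without D25 replicate 1 the lower tier held 13 genes, against 68 without D25 replicate 2 and 59 without D30 replicate 2. The looser tier thus follows D30 replicate 1 on the higher side and D25 replicate 1 on the lower side.

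**Figure D1:**
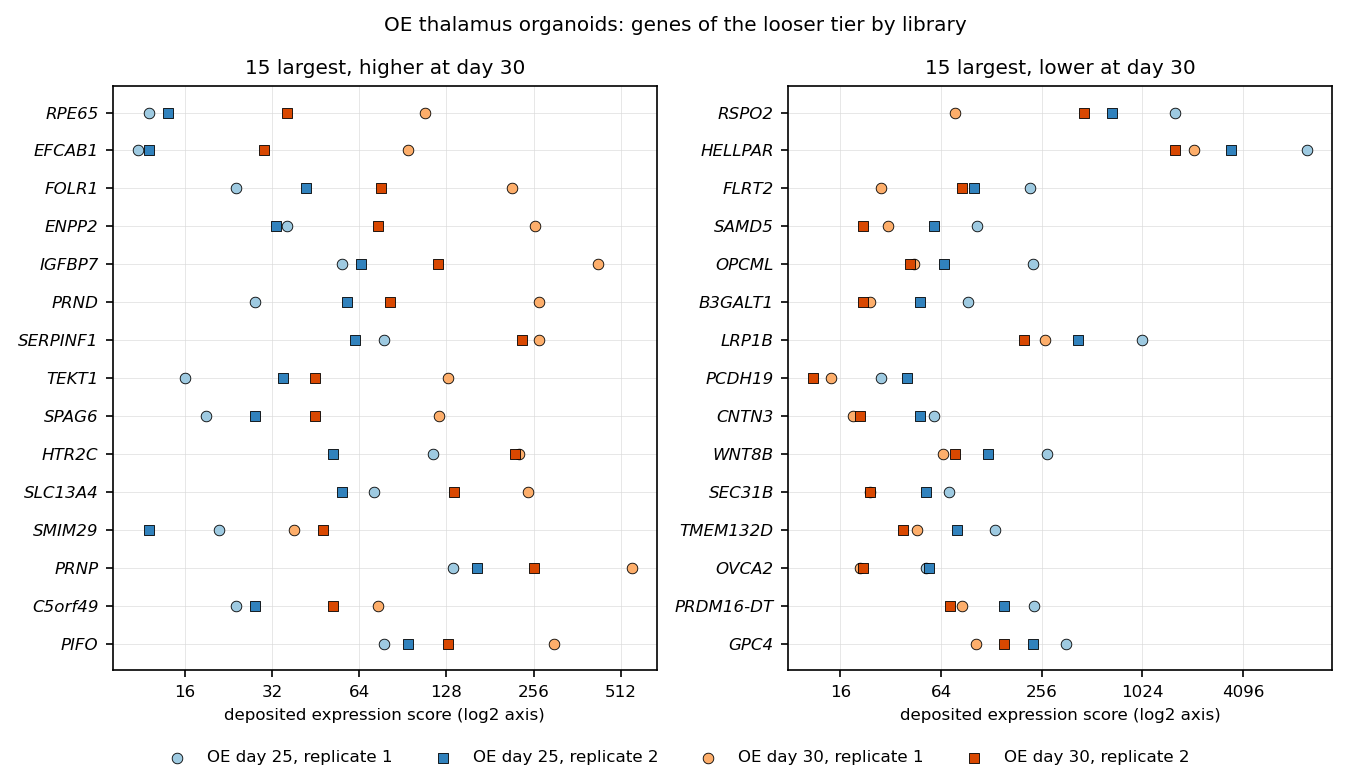
Deposited expression score (log2 axis) of the 15 largest differences in each direction within the looser tier, with 1 point per OE library (circles, replicate 1; squares, replicate 2; blue, D25; orange, D30). The D25 and D30 points do not overlap for any gene, by construction, while the light orange circle (D30 replicate 1) lies far above the D30 square for most of the higher genes, as for RPE65 (108 and 36).

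Choroid plexus genes were the list with the most members in the higher tier. Of the 18 genes of the choroid plexus list in the tables, 5 were in the higher tier and 0 in the lower, 15 had a log2 difference above 0 (50.1% of all genes did), and the median difference was 0.62, against 0 over all genes. The days did not overlap in 7 with D30 higher (18.3% of all genes) and in 1 with D30 lower (19.4%). That 1 was the transcription factor OTX2. FOLR1, the folate receptor that carries folate across this epithelium, scored 24 and 42 at D25 and 216 and 76 at D30 (log2 difference 1.98, SE 0.84). ENPP2, which encodes autotaxin, the enzyme that makes lysophosphatidic acid, scored 36 and 33 and then 258 and 74 (1.97, SE 0.68). IGFBP7, a secreted binding protein for insulin-like growth factors, scored 56 and 65 and then 427 and 120 (1.89, SE 0.60). In each of these the first D30 library was at least as far above the second as the second was above D25. HTR2C, the serotonin receptor of choroid plexus cells, differed in this, with 115 and 52 at D25 and close values of 228 and 220 at D30 (1.52, SE 0.61). SLC13A4, a sodium-dependent sulfate transporter, scored 72 and 56 and then 244 and 136 (1.51, SE 0.51).

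The defining gene of the list did not follow. TTR, the thyroid hormone carrier that defines this epithelium, scored 3452 and 1081 at D25 and 2672 and 3452 at D30, so the days overlapped. CLIC6, an intracellular chloride channel, scored 156 and 45 and then 198 and 160, and KCNJ13, a potassium channel, 232 and 102 and then 172 and 252 (overlapping). The summed score of the list was 8000 and 3528 at D25 and 7414 and 6656 at D30, so the sum overlapped between the days as well. In bulk organoid RNA a larger share of choroid plexus cells and more RNA per such cell cannot be told apart. Without D30 replicate 1 none of the list was in the tier (0 higher, 0 lower, median 0.69), and without D25 replicate 2 there were 2 higher and 1 lower (median 0.20).

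Motile cilia genes showed the same direction in 1 library. Of 26 cilia genes in the tables, 4 were in the higher tier and 0 in the lower, 22 had a difference above 0, and the median was 0.58. Of all genes, 0.326% were in the higher tier and 50.1% had a difference above 0. TEKT1, a filament protein of the ciliary axoneme, scored 16 and 35 at D25 and 130 and 45 at D30 (1.65, SE 0.62). SPAG6, of the central apparatus of the axoneme, scored 19 and 28 and then 121 and 45 (1.64, SE 0.74). PIFO, a protein of cilia, scored 78 and 94 and then 301 and 130 (1.20, SE 0.53), and DRC1, of the complex that links ciliary dyneins, 32 and 48 and then 108 and 62 (1.04, SE 0.47). D30 replicate 1 was the highest of the 4 libraries for all 26 cilia genes, compared with 26.1% of all genes. FOXJ1, the master regulator of motile cilia, scored 272 and 185 at D25 and 462 and 224 at D30, and RFX3, its partner, 610 and 703 and then 734 and 501, so neither separated the days. The summed score of the list was 2269 and 2558 at D25 and 4900 and 2299 at D30: the second D30 library did not exceed the D25 range. Without D30 replicate 1 the median over the list was 0.05 and 0 genes were in the tier, without D25 replicate 1 it held 0 too (median 0.47), and without D30 replicate 2 it held 11 (median 1.30).

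**Figure D2:**
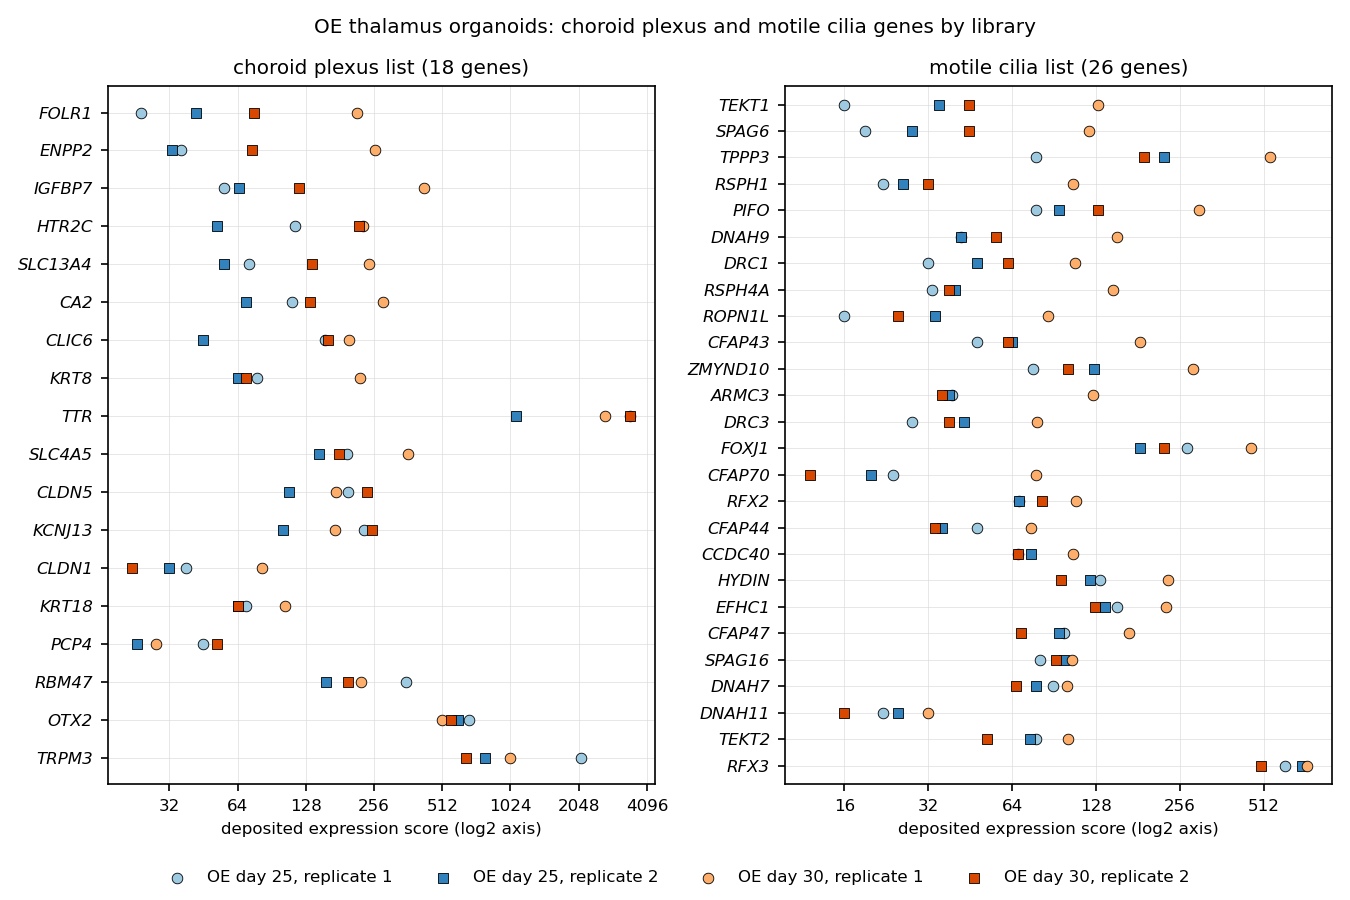
Deposited expression score (log2 axis) of the 18 choroid plexus and 26 motile cilia genes in the 4 OE libraries, ordered by the difference between the days. In the cilia panel the light orange circle (D30 replicate 1) is the rightmost point in every row, whereas the D30 squares lie among the D25 points for most genes; in the choroid plexus panel HTR2C has both D30 points (228 and 220) to the right of D25 and TTR does not.

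Other genes on the higher side included some of pigment epithelium, cilia and the prion protein locus, and not all are named here. RPE65, the isomerase of the visual cycle in retinal pigment epithelium, had the largest higher difference, with scores of 12 and 14 at D25 and 108 and 36 at D30 (2.19, SE 0.87, unadjusted p = 0.028). Its D25 values lie at the bottom of the table, where the lowest score is 11. SERPINF1, which encodes the secreted pigment epithelium-derived factor, scored 78 and 62 and then 267 and 234 (1.83, SE 0.79), with close replicates at both days. Of the 6 retina and pigment epithelium genes in the tables, these 2 were in the tier and 3 had a difference above 0. OTX2, also of this list, was lower at D30 without overlap (1 of 6, against 19.4% of all genes). CYP1B1, a retinoid and steroid hydroxylase of the same list, scored 51 and 238 and then 732 and 220 and overlapped. EFCAB1, a calcium sensor of ciliary dyneins also called calaxin, scored 11 and 12 and then 94 and 30 (2.12, SE 0.80), and C5orf49, now named as a cilia and flagella associated protein, 24 and 28 and then 74 and 52 (1.23, SE 0.41). The D25 values of EFCAB1 also lie at the bottom of the table. PRNP, which encodes the prion protein, and its neighbor PRND, which encodes the prion-like protein doppel, lie beside each other (chr20:4686350-4701590 and chr20:4721909-4728460). PRNP scored 135 and 163 and then 559 and 256 (1.34, SE 0.44), and PRND 28 and 58 and then 268 and 82 (1.85, SE 0.54). SMIM29, a small membrane protein, scored 21 and 12 and then 38 and 48 (1.37, SE 0.51).

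On the lower side were 3 genes of secreted Wnt pathway proteins. RSPO2, an R-spondin that strengthens Wnt signaling by protecting Frizzled receptors, had the largest difference of all genes: 1606 and 678 at D25 and 78 and 460 at D30 (log2 difference -2.45, SE 0.67, unadjusted p = 0.00375). WNT8B, a Wnt ligand of the dorsal midline, scored 274 and 122 and then 66 and 78 (-1.34, SE 0.43), and WNT5A, a Wnt that signals mainly without beta-catenin, 383 and 196 and then 106 and 170 (-1.02, SE 0.32). For RSPO2 the low D30 value came from replicate 1, the library with the high choroid plexus and cilia values, and the other D30 library stood at 460 against 678 in the lower D25 library. Beyond these 3, none of the 39 Wnt pathway genes in the tables was in the tier, in either direction. FZD1, a Frizzled receptor, scored 314 and 200 and then 122 and 158 (-0.85), and RSPO1 217 and 226 and then 147 and 152 (-0.56). The median over the list was -0.05 with 17 genes above 0, and SP5, a direct target of Wnt signaling, scored 32 and 51 and then 84 and 36, without separating the days. Without D25 replicate 1, or without D30 replicate 1, a single Wnt gene was in the tier.

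The roof plate list itself did not move together. Of its 12 genes, RSPO2 and WNT8B were in the lower tier and 0 in the higher, 8 had a difference above 0, and the median was 0.27 (-0.02 without D30 replicate 1). Its transcription factors and ligands each lay on both sides of 0. Among the ligands, WNT1 had a difference of 0.66, GDF7 of 0.11 and RSPO3 of 0.07, unlike RSPO2 and WNT8B. Among the factors, LMX1A had a difference of -0.42. MSX1, a target of BMP signaling, scored 135 and 116 at D25 and 438 and 140 at D30 (0.98, SE 0.48), and LMX1B, a LIM homeodomain factor, 22 and 72 and then 182 and 65 (1.42, SE 0.57). As for the cilia genes, the D30 value of MSX1 and LMX1B was high in replicate 1 only, and the days of LMX1B overlapped. GDF10, a BMP family ligand, scored 33 and 20 and then 11 and 11, the lowest score in the table, so its difference (-1.15) is limited by the scale. It was the only 1 of 25 BMP and TGF-beta pathway genes in the tier. The 18 genes that the study examined in ThOs came in part from its own comparison of KO with WT organoids of this series, so the list is not independent evidence: 2 of them (RSPO2, WNT8B) were in the lower tier, 0 in the higher, and 7 had a difference above 0. MXRA5, a matrix protein of that list, scored 37 and 49 and then 24 and 20 (-0.93, SE 0.37), just under 2-fold.

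The level of these genes beside WT and the libraries labelled KO differed from gene to gene. RSPO2 scored between 26 and 112 in the libraries labelled KO and between 328 and 580 in WT, so both D25 libraries of OE lay above all WT libraries, and the D30 libraries of OE lay in the WT range (460) and in the range labelled KO (78). WNT8B scored between 20 and 51 in the libraries labelled KO, 169 and 334 in WT at D25, and 44 and 65 in WT at D30, so OE and WT had about the same course. MXRA5 scored 324, 148, 211 and 180 in WT and 46, 40, 62 and 52 in the libraries labelled KO. All 4 OE libraries lay below every WT library for MXRA5, in or under the range labelled KO. These levels are given as a description, without a test between genotypes.

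The lowest p of all genes was that of TPBG. This membrane glycoprotein, which restrains Wnt signaling, scored 1740 and 1158 at D25 and 676 and 650 at D30 (-1.10, SE 0.19). The days lay well apart, and with library weights in the fit it was the single gene called at 2-fold (adjusted p = 0.0482). DDX17 (-0.80), PTPRF (-0.76) and GAP43 (0.996) had the same adjusted p in that fit, at less than 2-fold. SPRY1, a feedback inhibitor of receptor tyrosine kinases, scored 148 and 82 and then 50 and 47 (-1.17, SE 0.36). IL17RD, also known as SEF, another inhibitor of FGF signaling, scored 700 and 400 and then 280 and 241 (-1.02, SE 0.24), and FLRT2, a partner of FGF receptors and of UNC5 guidance receptors, 218 and 101 and then 28 and 86 (-1.57, SE 0.52). These 3 belong to a list of 17 FGF receptor and ERK feedback genes that was added after the values were seen. In it 16 genes had a difference below 0 and the median was -0.24. Of all genes, 0.369% were in the lower tier and 50.1% had a difference above 0. DUSP6, DUSP4 and SPRY4, which follow ERK activity closely, had overlapping days: DUSP6 scored 80 and 35 and then 43 and 38. Without D25 replicate 1 the list had 0 genes in the tier and a median of -0.06.

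Extracellular matrix genes lay mostly below 0. Of 41 extracellular matrix genes 3 were in the lower tier, 1 in the higher, and 28 had a difference below 0 (median -0.25). Over all genes 0.369% were in the lower tier, 0.326% in the higher, and 50.1% had a difference above 0. GPC4, a cell surface glypican, scored 359 and 227 at D25 and 104 and 153 at D30 (-1.17, SE 0.32). LAMA1, the laminin chain of early basement membranes, scored 263 and 230 and then 140 and 99 (-1.06, SE 0.32), and RELN, a secreted guide of migrating neurons, 130 and 106 and then 51 and 62 (-1.05, SE 0.46). SPARCL1, a matricellular protein of glia and vessels, was the gene in the other direction, with 130 and 237 and then 592 and 251 (1.13, SE 0.42), a margin of 14 between the second D30 and the second D25 library. The list is sensitive to single libraries: the lower tier held 1 gene without D25 replicate 1, 5 without D25 replicate 2 and 6 without D30 replicate 1, and the higher tier 3 without D30 replicate 2 and 0 without D30 replicate 1.

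The lower tier also held genes that belong to no list used here. Some are described one by one, among them the cell adhesion genes OPCML, CNTN3 and PCDH19. LRP1B, a giant lipoprotein receptor relative, scored 1014 and 420 at D25 and 268 and 200 at D30 (-1.49, SE 0.41). OPCML, a GPI-anchored adhesion protein, scored 228 and 67 and then 44 and 42 (-1.50, SE 0.61), CNTN3, a contactin, 58 and 48 and then 19 and 21 (-1.36, SE 0.48), and PCDH19, a protocadherin, 28 and 40 and then 14 and 11 (-1.36, SE 0.48). CNTN3 and PCDH19 had close replicates at both days, whereas most of the OPCML difference came from 1 D25 library. The D30 values of PCDH19 lie at the bottom of the table, where the lowest score is 11. SLIT3, a secreted repellent of axons, was the only 1 of 44 axon guidance genes in the tier, with 268 and 139 and then 93 and 86 (-1.10, SE 0.34). Its relative SLIT2 scored 973 and 610 and then 525 and 294 (-0.97), and 30 of the 44 genes had a difference below 0 (median -0.13). SAMD5, whose role is little known, scored 105 and 58 and then 31 and 22 (-1.54, SE 0.42), B3GALT1, a galactosyltransferase, 93 and 48 and then 24 and 22 (-1.50, SE 0.53), and TMEM132D 134 and 80 and then 46 and 38 (-1.29, SE 0.56). The genes of the lower tier were long. Their median RefSeq span was 117008.5 bases, against 29374.5 in the higher tier and 36789.5 over all genes with a length (98.8% of them), and 18 of the lower genes were among the longest genes (110379 bases or more), when all genes were divided into 5 groups of like size. Over genes the day difference had a Spearman rho of -0.139 with length, a description over genes that share the same libraries, and the difference between the D25 replicates had one of 0.184; the part of gene length in the result was not tested.

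Noncoding RNAs of the nucleus were also on the lower side. HELLPAR, a long intergenic RNA, stood at the ceiling of the table in 1 D25 library (9910) and at 3456 in the other, and scored 2094 and 1606 at D30 (-1.67, SE 0.50). KCNQ1OT1, the imprinted antisense RNA of KCNQ1, scored 1603 and 1011 and then 628 and 552 (-1.11, SE 0.50), and PRDM16-DT, a divergent transcript of PRDM16, 229 and 153 and then 86 and 72 (-1.24, SE 0.39). Of 11 such RNAs, in a list added after the values were seen, these 3 were in the lower tier (0.369% of all genes were) and the median was -0.39. HELLPAR, KCNQ1OT1 and PRDM16-DT were also lower at D30 in WT (-1.31, -1.12 and -0.62). The same held in the libraries labelled KO (-2.85, -1.20 and -1.40). MALAT1 and RMST stood at the ceiling of 9910 in all 12 libraries and carry no information. Whether the authors' counting used the strand is not given in the sources used here, so KCNQ1OT1 and PRDM16-DT cannot be told apart from reads of their neighbors, nor OVCA2 (52 and 54, then 21 and 22) from DPH1, with which it overlaps. Without D25 replicate 1 none of the list was in the tier.

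Thalamic and neuronal identity genes had few members in the tier. Of the 17 thalamus and caudal forebrain transcription factors in the tables none was in it; 7 had a difference above 0 and the median was -0.06. The libraries of the 2 days did not overlap in 3 of them with D30 higher (BARHL1, ZIC1, ZIC2), against 18.3% of all genes, and in 3 with D30 lower (PROX1, PAX6, OTX2), against 19.4% of all genes, so both shares are near the background. TCF7L2, the Wnt effector used as a thalamus marker, scored 123 and 465 at D25 and 272 and 444 at D30, LHX9 148 and 484 and then 220 and 462, and SHOX2 22 and 152 and then 40 and 150. In all 3 genes replicate 1 was below replicate 2 at both days, and the gap between replicates was larger than that between days. OTX2, PAX6, ZIC1 and NR2F1, transcription factors of the developing diencephalon among other regions, were also listed in every library, while GBX2, OLIG3 and the 13 telencephalon markers were not analysed here. The library with the highest value in 12 of the 17 genes (22.3% of all genes) was D25 replicate 2, whose choroid plexus sum was the lowest of the 4 libraries. Among 28 early neuron genes 1 was in the tier: ONECUT3, a homeobox factor of newborn neurons, scored 42 and 46 and then 24 and 16 (-1.12, SE 0.46). GAP43, a growth cone protein, scored 361 and 412 and then 734 and 808 (1.00, SE 0.20, unadjusted p = 0.000418), just under 2-fold, with D25 and D30 well apart. The neuronal tubulin gene TUBB3 scored 1604 and 1740 and then 1410 and 1740, and NES, the intermediate filament of progenitors, 1330 and 1604 and then 1330 and 1214. None of 26 progenitor, 44 synaptic, 41 DNA replication or 47 mitosis genes was in the tier, and their medians lay between -0.04 and 0.03. Of the other cell types that such organoids can hold, GJA1, the gap junction protein of radial glia and astrocytes, was in the lower tier with 597 and 332 and then 228 and 202 (-1.05, SE 0.35). It and SPARCL1 were the members in the tier among 7 astrocyte and oligodendrocyte precursor markers, and no marker of mesenchyme (3 genes), neural crest (2), endothelium and blood (2), mid- and hindbrain (3), endoderm (2) or pluripotency (2) was.

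Of the 19 AP-1, ATF and MAF relatives listed, among which re-expressed c-JUN would act, 8 were in the tables. These held no FOS gene and no JUNB, and none of them was in the tier. CREB5, a partner of JUN outside the list, was in the lower tier with 45 and 34 at D25 and 14 and 23 at D30 (-1.08, SE 0.41). JUN scored 224 and 212 at D25 and 362 and 202 at D30 (0.31, SE 0.32), and the sign turned (-0.11) without D30 replicate 1. Of the 8 AP-1, ATF and MAF genes, 3 were above 0 and the median was -0.02. The days did not overlap in 2 (MAF and MAFG, both lower at D30), against 19.4% of all genes that were lower without overlap. MAF, a large MAF factor, scored 387 and 252 and then 186 and 204 (-0.68, SE 0.28), and JUND, the most widely expressed JUN relative, 195 and 264 and then 249 and 284 (0.23, SE 0.21). Of 11 immediate-early genes none was in the tier either, and 4 had a difference above 0.

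The remaining lists had few members in the tier. BCL2, which protects cells from apoptosis, was the only 1 of 25 p53 target and apoptosis genes in it, with 167 and 150 at D25 and 68 and 72 at D30 (-1.17, SE 0.35), each day being close between replicates. None of 39 glycolysis and hypoxia, 32 cholesterol synthesis, 27 heat shock and ER folding, 24 integrated stress response, 20 Notch pathway or 58 histone genes was in it. Cholesterol synthesis genes had a difference above 0 in 26 of 32 (median 0.12) and glycolysis and hypoxia genes in 29 of 39 (median 0.18), and the other medians of this group lay between -0.05 and 0.10.

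A small difference shared by most members of a list lay in genes of mitochondria and ribosomes. Of 61 nuclear genes of oxidative phosphorylation, 60 had a difference above 0, and in 44 both D30 libraries exceeded both D25 libraries, which held for 18.3% of all genes. The median was 0.39, and it lay between 0.29 and 0.48 when each OE library was left out in turn. Only 2 reached the tier. NDUFB2, of complex I, scored 46 and 26 and then 76 and 70 (1.05, SE 0.41), and ATP5F1E, of the ATP synthase, 84 and 50 and then 128 and 140 (1.03, SE 0.35). By complex, the median was 0.38 for 27 NDUF genes of complex I, 0.22 for 4 SDH genes of complex II, 0.38 for 7 genes of complex III and cytochrome c, 0.49 for 10 COX genes of complex IV and 0.40 for 13 genes of the ATP synthase. All 10 COX genes were above 0, and in 9 of them the libraries did not overlap. The summed score of the list was 13277 and 13134 at D25 and 16873 and 15940 at D30, a separation that the choroid plexus and cilia sums did not show. The 82 cytosolic ribosomal protein genes had a median of 0.32, 71 were above 0, and in 41 the D30 libraries lay above those of D25 and in 0 below. Their summed score overlapped, however (69139 and 83824, then 93406 and 81679), and the median was 0.12 without D25 replicate 1. Ribosomal protein genes have many near-identical pseudogenes, so their scores depend on how the authors assigned shared reads. Genes of these lists are short (median spans of 11105.5 and 5046 bases), and the group of the shortest genes (up to 11851 bases) had a median of 0.07 against -0.05 in that of the longest; the part of gene length in the result was not tested.

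**Figure D3:**
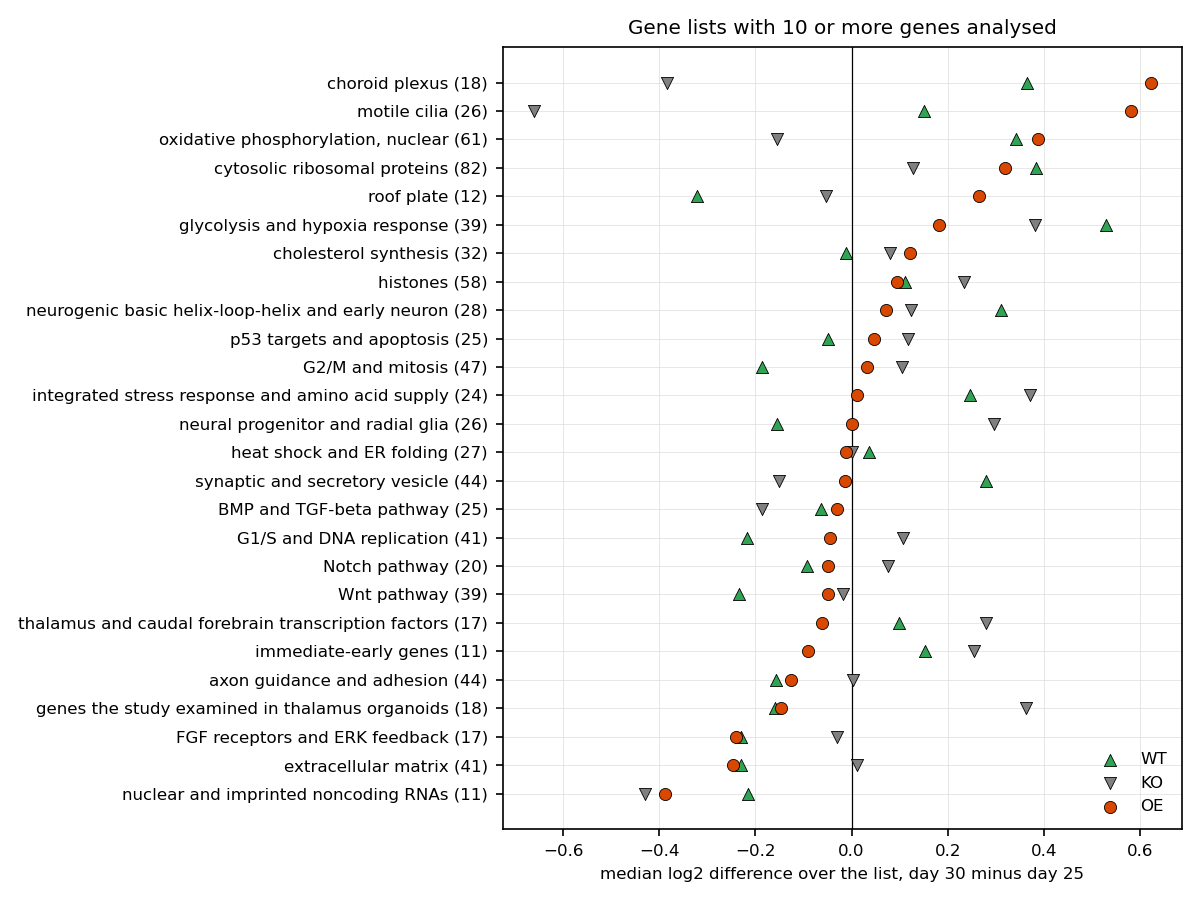
Median log2 difference (D30 minus D25) over each gene list with at least 10 genes in the tables, for OE (circles), WT (upward triangles) and the libraries labelled KO (downward triangles), with the number of genes in parentheses. Choroid plexus (0.62), motile cilia (0.58) and oxidative phosphorylation (0.39) are the highest OE medians, WT lies on the same side of 0 for each of these, and the libraries labelled KO lie on the other side.

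WT organoids gave the comparison for the same 5 days without editing. In WT too 0 genes (0%) were called, and the looser tier held 110 genes (1.16%). Of the 66 genes of the OE tier, 62 had the same direction in WT (93.9%, against 65.9% of all genes), and 9 were also in the WT tier, which is 13.6% of the OE tier and 8.18% of the WT tier. The OE and WT comparisons share no library. At D30, however, replicates 1 and 2 deviated in part alike in both groups (correlation 0.262 over genes). Whether equal replicate numbers mark a shared batch is not given in the sources used here, so the comparisons may not be independent. The 31 higher genes had a median of 1.17 in OE and 0.54 in WT, and the 35 lower genes of -1.15 and -0.61, and since the members were chosen in OE, a smaller median elsewhere was built in. FOLR1 was close in both (WT 34 and 42, then 182 and 88, log2 difference 1.72), as was LRP1B (WT 1084 and 948, then 446 and 306, -1.45), and WNT8B differed more in WT (169 and 334, then 44 and 65, -2.13). Oxidative phosphorylation genes had a WT median of 0.34 and ribosomal protein genes of 0.38. The difference between the day effects of OE and WT was called for 0 genes (0%), with 36 genes (0.379%) at an unadjusted p under 0.05. That share is also below the 0.05 that the threshold alone would let through.

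Of the 10 genes that head these 36, 5 on each side, FAAH alone was in the OE tier. JPH3, a junctophilin of neuronal membranes, scored 61 and 62 and then 16 and 38 in OE, and 36 and 19 and then 66 and 52 in WT (difference of day effects -2.41, unadjusted p = 0.0141). FAAH, the hydrolase of the endocannabinoid anandamide, scored 36 and 30 and then 12 and 18 in OE, and 28 and 32 and then 34 and 44 in WT (-1.47, unadjusted p = 0.0202). MUTYH, a DNA repair glycosylase, was on the other side, with 45 and 54 and then 54 and 64 in OE, and 68 and 72 and then 36 and 24 in WT (1.47, unadjusted p = 0.0127). GJA1 is among the 36 genes as well. Its WT scores were 540 and 649 and then 746 and 626, and the difference of day effects was -1.26 (unadjusted p = 0.0266). For RSPO2 the WT scores were 436 and 580 and then 328 and 455, and the difference of day effects was -2.07 (unadjusted p = 0.0519). The adjusted p was 1 for all of these.

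**Figure D4:**
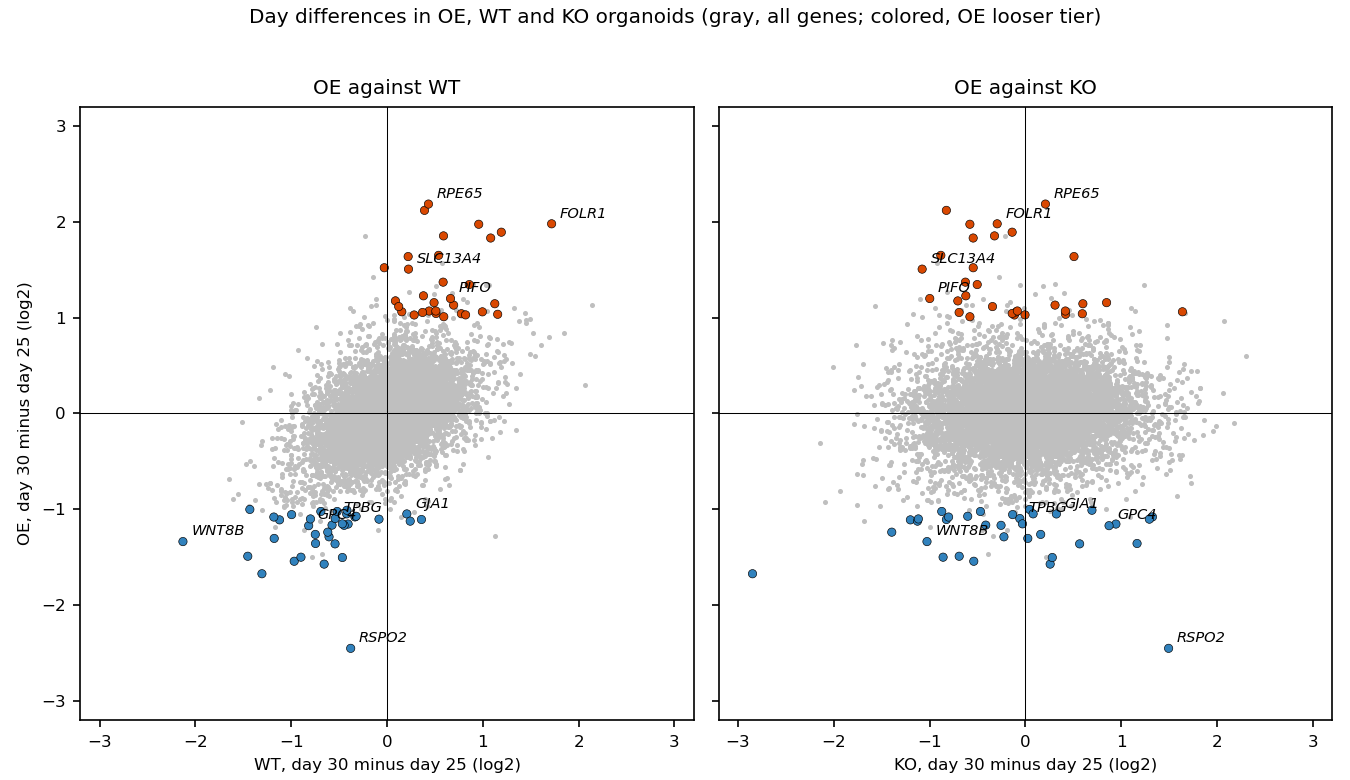
Log2 difference between the days (D30 minus D25) in OE against that in WT (left) and in the libraries labelled KO (right), with all 9497 genes in gray and the 66 genes of the OE looser tier in color (orange, higher; blue, lower). Colored genes lie mostly in the same-sign quadrants on the left (62 of 66) and less so on the right (29 of 66), where RSPO2 and GPC4 lie opposite to OE.

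The libraries labelled KO gave a different picture, with larger spread. Their looser tier held 469 genes (4.94%) and again 0 were called (0%). Of the 66 genes of the OE tier 29 had the same direction (43.9%, against 53.4% of all genes), among them 9 of the 31 higher and 20 of the 35 lower genes. The day effects of OE and of the libraries labelled KO differed at an unadjusted p under 0.05 in 511 genes (5.38%), none of which passed the adjustment (lowest adjusted p = 0.848). That share is close to the 0.05 that the threshold alone would let through. RSPO2 scored 26 and 28 and then 112 and 54 in the libraries labelled KO, opposite to OE (difference of day effects -3.95, SE 0.95). CREB5, a partner of JUN, scored 45 and 34 and then 14 and 23 in OE, and 12 and 20 and then 34 and 48 in the libraries labelled KO (-2.41, SE 0.58). For cilia genes the opposite direction came largely from 1 library: DNAH9, an axonemal dynein, scored 42 and 42 and then 152 and 56 in OE, but 145 and 435 and then 82 and 86 in the libraries labelled KO (2.69, SE 0.78). The summed cilia score was 4072 and 10116 at D25 in those libraries and 3591 and 4535 at D30. The choroid plexus sum, 5087 and 12760 and then 6623 and 5434, had the same high D25 library, replicate 2. The number of genes that differed from the OE day effect changed when D30 replicate 1 of those labelled KO was left out, but not without D30 replicate 2. In the former fit replicate 2 alone stands for that day, and it is the library that lay apart on the first principal component. The count of 0 thus depends on the libraries used, and that fit cannot say which genes differ.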

How the data were processed

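RNA-seq was performed on 3 pooled ThOs per library, with TRIzol extraction of total RNA. The authors deposited 1 table per library, with an Ensembl identifier, a GRCh38 position, a symbol and an expression score per gene; the deposited score is a whole number that appears quantile-normalized, and how it was made is not given in the sources used here. The submitters' processing notes name bcl2fastq, Bowtie2, RSEM and hg19, without saying which step each served, while 9386 of 9386 symbols matched in RefSeq GRCh38.p14 overlap its positions. Scores of different libraries were compared as deposited, as log2(score + 1), so that differences of low genes are slightly understated. As the values were no counts, no count model was used. The authors' ATAC-seq (9) and CUT&Tag (2) samples were not analysed here.

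A model with a mean per genotype and day was fitted to the 12 libraries with limma 3.58.1 in R 4.3.3 (empirical Bayes moderation with an intensity trend, 6 residual and 5.29 prior degrees of freedom), with Benjamini-Hochberg adjustment over all genes, and was tested on simulated data. SE is that of the log2 difference in this fit. Calls required 2-fold and an adjusted p under 0.05; for differences of day effects the adjusted p alone was used. A filter (score of at least 1 in 2 libraries) removed 0 genes. P-values are two-sided. The study states in general that experiments used separate batches, but not whether the RNA-seq replicates did, so p-values measure the spread between these libraries, which may be technical.

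The genes named were JUN, the AP-1 list, the genes the study examined in ThOs, the 15 largest differences per direction among called genes, filled up from the looser tier, the 5 largest per direction of each difference of day effects (called, filled up from unadjusted p under 0.05), and up to 6 looser-tier members per list. TPBG and the list members named from outside the tier were picked with their values in view. The comparison, the lists and the rules were chosen with earlier results of these data known, and a list is described by counts and its median only. The lists of telencephalon, prethalamus and mitochondrial genome genes had 0 genes in the tables and were not analysed here. Alternatives were other pseudocounts, filters, scalings, samples in the fit, library weights, a replicate block and leaving out single libraries. Figures were drawn with matplotlib 3.10.9 in Python 3.11.15.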

Additional observations from a re-analysis of the deposited data

Results flagged for a closer look

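In 10 of the 66 genes of the OE looser tier, both libraries of D30 lay on 1 side of both libraries of D25 in OE and on the opposite side in the libraries labelled KO. Every gene of the tier separates the days in OE by its definition. How often genes outside the tier separate in opposite directions was not counted, so the 10 cannot be set against a background. The difference of the day effects (OE minus the libraries labelled KO, log2) had an adjusted p of 0.848 for each of them, so none passed the test. It was 2.18 for PRND (28 and 58, then 268 and 82 in OE; 245 and 256, then 200 and 200 in the libraries labelled KO), 2.58 for SLC13A4 (72 and 56, then 244 and 136; 162 and 505, then 124 and 147), 2.00 for SMIM29 (21 and 12, then 38 and 48; 32 and 38, then 26 and 19) and 2.20 for PIFO (78 and 94, then 301 and 130; 258 and 926, then 232 and 257). It was -3.95 for RSPO2 (1606 and 678, then 78 and 460; 26 and 28, then 112 and 54) and -2.04 for GPC4 (359 and 227, then 104 and 153; 38 and 51, then 99 and 67). It was 1.75 for NDUFB2 (46 and 26, then 76 and 70; 76 and 81, then 61 and 38), -2.41 for CREB5 (45 and 34, then 14 and 23; 12 and 20, then 34 and 48), -2.10 for GDF10 (33 and 20, then 11 and 11; 31 and 25, then 38 and 78) and -2.40 for ACKR3 (86 and 111, then 56 and 36; 47 and 18, then 62 and 86), which was named here with its values in view. All 10 have the same sign in WT as in OE, and D25 replicate 2 of the libraries labelled KO is the highest of the 12 libraries for SLC13A4 and PIFO.

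Among the other genes named by the rules, the same opposite separation held for DNAH9 (2.69), KCNIP1 (-2.46), MXRA5 (-1.32), RPUSD2 (1.00) and SEMA6A (-0.962), again with an adjusted p of 0.848 for each difference. Against WT, the difference of the day effects (OE minus WT) of genes that separated the days in opposite directions was -1.47 for FAAH, the 1 such gene of the looser tier, and -2.41 for JPH3, -1.34 for MROH1, 1.48 for AGTRAP, 1.41 for GLB1L2, 1.40 for MXRA8 and 1.25 for RPUSD2. The adjusted p was 1 for each of these. JPH3, MROH1, AGTRAP, GLB1L2, MXRA8, RPUSD2 and KCNIP1 were among the largest differences of day effects, by which they were named.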

How the results depend on the processing

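The depth of the libraries is unknown, and 2 libraries a group limit every p; leaving out a library leaves 1 in its group, which is then assumed to vary like the others. With library weights 1 gene (TPBG) was called between the days in OE and 50 genes were in the higher tier. In every other setting 0 genes were called in OE, while the higher tier held from 16 to 88 and the lower tier from 13 to 68 genes when 1 OE library was left out. The counts called in leave-one-out fits were 0 to 2 in WT, 1 to 938 in the libraries labelled KO (938 without D30 replicate 1), 0 to 1 for OE minus WT and 0 to 151 for OE minus the libraries labelled KO. Between the OE days, deviations of equal replicate numbers correlated at -0.04. Over all pairs of groups the correlation ran from -0.214 (WT at D30 and the libraries labelled KO at D25) to 0.262 (WT and OE at D30). With a replicate block 0 genes were called in OE and 26 and 35 were in the tier. With only the WT and OE libraries in the fit 0 genes were called in OE, and 46 genes were in the higher tier and 43 in the lower.

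When single libraries were left out, the log2 difference between the days in OE ran from -0.11 to 0.73 for JUN, -0.33 to 0.32 for ATF2, -0.57 to 0.68 for ATF3, -0.37 to 0.021 for ATF4, -0.12 to 0.052 for ATF7, -0.54 to 0.022 for PLAGL1, -0.49 to 1.55 for COL2A1, -0.42 to 1.49 for TCF7L2, -0.24 to 0.059 for TUBB3, -0.40 to 0.33 for CNTN2, -1.13 to 0.69 for PTPRZ1, -1.06 to 0.16 for CTSZ, -0.16 to 1.02 for KCNJ13, -0.18 to 1.49 for TTR, -0.0022 to 1.04 for FOXJ1, -0.39 to 0.16 for RFX3, -0.16 to 1.04 for SP5, -0.97 to 0.20 for DUSP6, -0.60 to 1.10 for LHX9 and -0.96 to 1.77 for SHOX2, so the sign turned for each of these genes. Each turned with a D25 or D30 library of OE left out, and the cause was not tested. For the other genes recomputed, which include every looser-tier gene named in the report, the sign held in each setting run.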

Other observations

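The second D30 library of OE stood apart in histone genes. Of 58 histone genes, D30 replicate 1 exceeded D30 replicate 2 in 0, and D30 replicate 2 was the highest OE library in 41. Over all genes these shares were 47.7% and 21.8%, which are the background for the other counts of this paragraph too. The summed histone score was 21179 and 22316 at D25 and 20032 and 25445 at D30. Cholesterol synthesis genes stood apart in the first D25 library, with a sum of 16589, against 25999 in the other D25 library and 25321 and 25885 at D30. Integrated stress response genes were higher in D30 replicate 1 than in D30 replicate 2 in 21 of 24. In 17 of 28 early neuron genes D30 replicate 2 was the highest OE library, and in 3 of 28 D30 replicate 1 exceeded D30 replicate 2.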
